A study of Mus musculus with 21 samples.

Results

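The 35 genes described here encode the working parts of the lysosome: 10 cathepsins and processing proteases, 8 glycosidases, lipases and thioesterases, 4 cofactors and lipid transfer proteins, 7 membrane proteins, 4 subunits of the proton pump, and the transcription factors Tfeb and Tfe3. They were taken by symbol, after the Ensembl identifiers of the deposited table were matched to GENCODE mouse M21, and make up 35 of its 45706 genes. Expression was measured by RNA sequencing in 21 libraries in 7 groups of 3, prepared from male mice on a C57BL/6 background aged 17 to 24 weeks. Microglia (CD45low CD11b+ cells, 40000 per library) came from wildtype mice given a sham operation, which is anaesthesia and a craniotomy without the impact, and, 1 d or 7 d after a controlled cortical impact (CCI, a model of traumatic brain injury), from wildtype (WT) and Fgg390-396A mice. Neither the labels nor the sources used here give the day after surgery for the sham libraries. The same sham group was the baseline at 1 d and at 7 d. Infiltrating myeloid cells (CD45hi CD11b+ cells, 25000 per library) came from both genotypes at 1 d only. Fgg390-396A mice carry a knock-in mutation of the fibrinogen gamma chain that removes the motif bound by the integrin CD11b/CD18 and leaves clotting intact, and no sham group carried it. Each library held cells from a tissue block spanning the lesion of 2 brains pooled at random, so the spread between replicates is a spread between pools. Whether microglia and infiltrating cells of the same replicate number came from the same pool is not stated. They were fitted as independent libraries.

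The lysosome is the acid compartment in which cells break down proteins, glycans, lipids and engulfed debris. A proton pump, the V-type ATPase, acidifies it, and most cathepsins and glycosidases work best at that low pH. Sphingolipid hydrolases need activator proteins cut from prosaposin, while NPC1 and NPC2 hand cholesterol out of the lumen. Microglia, the resident phagocytes of the brain, carry a large lysosomal system. TFEB and its relative TFE3 are known to switch on lysosomal genes through the CLEAR element, a DNA sequence built around an E-box.

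The authors deposited expected counts per gene from salmon, with gene length divided out within a library, so levels can be set side by side between genes. Levels are given here as CPM, counts relative to the library total, after edgeR's TMM scaling, and differences as log2 fold changes with their standard error (SE). A call is an adjusted p under 0.05 for injury, time and cell type, or under 0.1 for genotype, by the quasi-likelihood test of edgeR, adjusted after Benjamini and Hochberg over 23815 genes. Beside some counts, a stricter one is given of the calls with an absolute log2 fold change above 1. Counts of genes with an unadjusted p under 0.05 are descriptions only. The share of all genes at that threshold was not counted, and the percentages given refer to calls. Whether the libraries of 2 groups overlap is likewise a description, and the share of all genes without overlap was not counted. All 35 lysosomal genes passed the filter on low counts. Libraries held 18896957 to 51875767 counts, of which 43.0% to 58.5% lay on ribosomal RNA genes. The TMM factors ranged from 0.735 to 1.55 and were highest in the sham libraries. The unscaled level worth 3 counts lay between 0.0578 and 0.159 CPM, which covers counting error only. Sham replicate 3 stood apart on these genes: it was the highest sham library for 33 of the 35, and their summed level was 15089 CPM in it against 9881 and 11067 CPM in the other sham libraries. Every comparison with sham is therefore also given without it.

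The labels of the sorted cells were checked against marker genes. In sham microglia the summed level of 8 microglial markers (P2ry12, Tmem119, Sall1, Gpr34, Siglech, Olfml3, Cx3cr1 and P2ry13) was 7283 to 7986 CPM, and that of 8 markers of monocytes and macrophages from blood (Ccr2, Ly6c2, Plac8, Chil3, F13a1, Vcan, S100a4 and Fn1) was 18.5 to 76.2 CPM. In the infiltrating cells the order was inverted, with 134 to 359 CPM of microglial markers and 3636 to 4929 CPM of monocyte markers. These cells also held 2766 to 13211 CPM of 8 neutrophil markers, against 105 to 835 CPM in all microglia libraries. Their sum of 5 border macrophage markers (Mrc1, Lyve1, Pf4, Cbr2 and Cd163) was 1003 to 1910 CPM, against 4.24 to 216 CPM in microglia libraries. In sham replicates 1, 2 and 3 this last sum was 4.24, 97.4 and 210 CPM. Which cells carried these messages was not tested. In microglia after CCI the microglial sum was 1221 to 2314 CPM in WT mice at 1 d, 2434 to 3992 CPM in Fgg390-396A mice at 1 d, and 3727 to 5169 CPM at 7 d, while the monocyte sum was 42.1 to 248 CPM. The part of these shifts in the lysosomal results was not tested. In such bulk libraries, a change in which cells were sorted and a change in RNA per cell cannot be told apart.

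**Figure D1:**
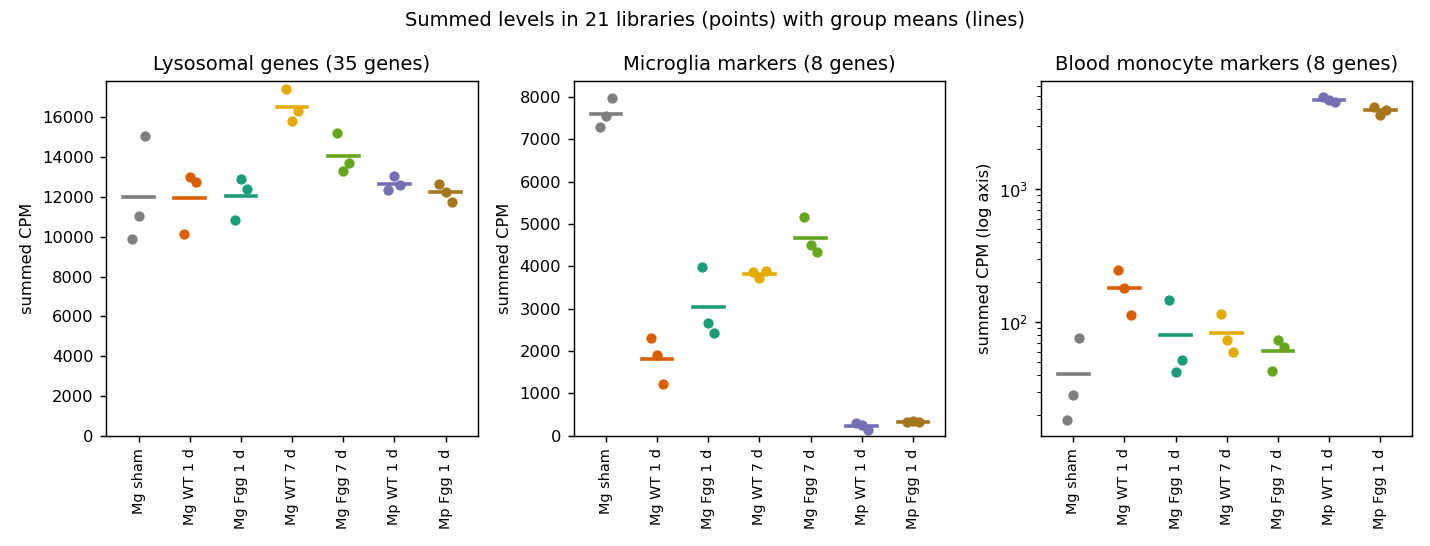
Summed level in CPM of the 35 lysosomal genes, of 8 microglial markers and of 8 blood monocyte markers (log axis for the monocyte markers only) in each of the 21 libraries, in 7 groups of 3 points each. The lysosomal sum lay between 9881 and 17453 CPM in every library, while the marker sums changed place between microglia and infiltrating cells.

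In sham microglia, the lysosomal genes were among the most abundant messages. Ctss, the cathepsin that works in antigen-presenting cells and stays active near neutral pH, stood at 1829, 1988 and 2609 CPM, 18th among 23815 genes tested. Ctsd, the main aspartic protease of the lysosome, stood at 1326, 1356 and 2422 CPM. Laptm5, a lysosomal membrane protein of blood-derived cells, stood at 1134, 1222 and 1565 CPM. The ranges of these 3 neighbours overlapped in that order. Lgmn (legumain, an asparaginyl protease that matures cathepsins) at 833 ± 129 CPM, Psap (prosaposin) at 639 ± 112 CPM, Ctsa at 631 ± 187 CPM, Lamp1 at 610 ± 151 CPM and Grn (progranulin) at 572 ± 179 CPM followed (SD, n = 3), with steps smaller than their spread from Psap down. Among the lower ones, Tfe3 stood at 35.1 ± 2.84 CPM, Tfeb at 17.4 ± 1.60 CPM and Mcoln1, the lysosomal calcium channel, at 15.3 ± 2.91 CPM (SD, n = 3). Gla, the alpha-galactosidase, stood at 0.861, 0.987 and 2.41 CPM. Atp6v0d2, the alternative d subunit of the proton pump known from osteoclasts and macrophages, had only 0, 1 and 9 counts. The summed level of the 35 genes was 12012 ± 2729 CPM in sham microglia, 11951 ± 1577 CPM in WT and 12031 ± 1073 CPM in Fgg390-396A microglia at 1 d, and 16520 ± 846 CPM and 14070 ± 1003 CPM at 7 d (SD, n = 3). At 7 d the 3 WT libraries (15804 to 17453 CPM) lay above all sham libraries, and the Fgg390-396A libraries (13315 to 15207 CPM) overlapped with sham. The place of the WT libraries depends on the scaling. TMM factors were 1.39 to 1.55 in sham and 0.958 to 1.02 in WT libraries at 7 d, and without them the summed levels of these groups overlap.

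Promoters are shown because TFEB and TFE3 are known to switch on lysosomal genes through the CLEAR element. Which of the members they act on in these cells was not tested. RefSeq promoter sequences of the GRCm38.p6 assembly, from 250 bases before to 50 bases after a start site, were found for 30 of the 35 genes. The E-box CACGTG lay in 11 of the 30 (36.7%) and in 8.09% of 27025 genes with a promoter, and the longer CLEAR core TCACGTGA, which contains the E-box, lay in 6 of the 30 (20.0%) and in 1.12% of all genes. Both motifs read the same on either strand. The 6 with the core were Gla, Atp6v1a, Atp6v0d1, Ctsd, Ctsa and Mcoln1. The 4 below were chosen because they moved in different ways after injury: Gla and Atp6v1a were higher at 1 d, Ctsd was lower at 1 d, and Lamp1 holds 4 E-boxes but no core. Each sequence runs 5′ to 3′ on the strand of its gene, with the motif in capitals.
Gla, chrX:134600956-134601255, minus strand: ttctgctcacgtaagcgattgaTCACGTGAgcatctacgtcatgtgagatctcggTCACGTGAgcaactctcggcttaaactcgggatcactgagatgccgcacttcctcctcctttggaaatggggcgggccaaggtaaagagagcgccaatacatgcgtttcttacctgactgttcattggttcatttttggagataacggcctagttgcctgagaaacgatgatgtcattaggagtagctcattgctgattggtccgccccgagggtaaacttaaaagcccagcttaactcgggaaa
Atp6v1a, chr16:44139210-44139509, minus strand: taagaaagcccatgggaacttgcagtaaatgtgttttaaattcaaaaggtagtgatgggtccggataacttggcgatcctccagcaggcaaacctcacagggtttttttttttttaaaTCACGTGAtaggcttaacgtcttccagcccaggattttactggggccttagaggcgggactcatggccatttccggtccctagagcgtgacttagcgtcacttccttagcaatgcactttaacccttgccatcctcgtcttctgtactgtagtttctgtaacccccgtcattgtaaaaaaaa
Ctsd, chr7:142387778-142388077, minus strand: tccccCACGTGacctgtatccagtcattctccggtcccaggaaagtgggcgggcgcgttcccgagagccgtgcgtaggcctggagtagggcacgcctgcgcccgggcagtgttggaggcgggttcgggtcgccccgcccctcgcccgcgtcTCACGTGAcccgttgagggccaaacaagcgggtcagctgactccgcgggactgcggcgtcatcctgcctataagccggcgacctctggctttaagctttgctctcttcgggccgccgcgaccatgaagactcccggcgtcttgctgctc
Lamp1, chr8:13158911-13159210, plus strand: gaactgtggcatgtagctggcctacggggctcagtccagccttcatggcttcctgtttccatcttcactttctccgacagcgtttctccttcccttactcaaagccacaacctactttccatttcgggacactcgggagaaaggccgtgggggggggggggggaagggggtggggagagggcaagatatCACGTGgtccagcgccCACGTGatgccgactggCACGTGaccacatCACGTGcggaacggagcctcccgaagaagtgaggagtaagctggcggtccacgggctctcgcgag
The motif did not follow one direction. Among members with a promoter, the CLEAR core lay in 3 of the 10 that were higher at 1 d in WT microglia, in 1 of the 9 that were lower, and in 2 of the 11 that were not called. The E-box lay in 4, 1 and 6 of them. These are descriptions of letters in a window, not of binding.

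At 1 d post-CCI, lysosomal genes of WT microglia moved in both directions, with a median log2 fold change of 0.02. Of the 35, 12 were higher and 10 lower than in sham microglia, and 13 did not pass the test. Over all genes 16.7% were called, 10.7% higher and 5.97% lower, and 46.8% of the 5368 genes with a mean above 10 CPM, a level that all members but Atp6v0d2 exceed. The split ran through every class of enzyme, whereas 3 of the 4 pump subunits were higher and both transcription factors were lower. Of the 22 calls, 10 exceeded a log2 fold change of 1 in size. Over all genes 2920 of 3970 calls did, and these 2920 were 12.3% of the genes tested. Without sham replicate 3, 18 of the 35 were called and the median was 0.19. Leaving out each of the 6 libraries in turn ended 9 of the 22 calls in at least 1 fit: those of Atp6v0d1, Atp6v1h, Ctsh, Ctss, Ctsz, Laptm5, Ppt1, Tfe3 and Tfeb. With library size alone as the scaling, the median over genes above 1 CPM moved to -0.72 and the calls to 5 higher and 21 lower. Of the genes called higher, Atp6v0d1, Atp6v1h, Ctsz and Ppt1 then had log2 fold changes of -0.083, -0.089, -0.064 and -0.15, so directions are relative to the bulk of the transcriptome.

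Among the proteases, cysteine cathepsins parted. Ctsl, a broad endopeptidase, stood at 198, 229 and 344 CPM in sham and at 599, 723 and 817 CPM in WT microglia at 1 d. All injured libraries were above all sham libraries, with a log2 fold change of 1.47 (SE 0.22, adjusted p = 6.3e-05, edgeR). Ctsb (1.60), Ctsc (1.36, the protease that activates granule serine proteases) and Ctsz (0.68) rose as well. Ctsd fell from 1326, 1356 and 2422 CPM to 801, 924 and 848 CPM, by 0.99 on the log2 scale (SE 0.22, adjusted p = 0.00274, edgeR). Ctss fell to 1530, 1456 and 1230 CPM, by 0.61 on the log2 scale (SE 0.19, adjusted p = 0.028, edgeR), without overlap with sham. This last call was lost in 3 of the 6 fits without 1 library, with an adjusted p of up to 0.17, and in a fit of the 2 groups alone, with an adjusted p of 0.109. Ctsh also fell, by 0.78, whereas Ctsa, Lgmn and Tpp1 did not pass the test.

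The glycosidases held the largest change of all 35 genes. Gla (ENSMUSG00000031266, chromosome X, 134588149 to 134601125, minus strand), which removes terminal alpha-galactose from glycolipids, rose from 0.861, 0.987 and 2.41 CPM to 7.52, 13.1 and 19.5 CPM, a log2 fold change of 3.21 (SE 0.41, adjusted p = 1.37e-05, edgeR). Its promoter, shown above, holds the CLEAR core at 2 places. Gusb, the beta-glucuronidase, rose by 1.32 on the log2 scale, and Ppt1, which removes palmitate from proteins, by 0.61. The alpha subunit of beta-hexosaminidase moved the other way: Hexa (ENSMUSG00000025232, chromosome 9, 59539540 to 59565109, plus strand) fell from 156, 176 and 223 CPM to 92.1, 93.7 and 78.6 CPM, by 1.07 on the log2 scale (SE 0.15, adjusted p = 3.37e-05, edgeR). Man2b1, the lysosomal alpha-mannosidase, fell from 135, 150 and 229 CPM to 89.7, 74.8 and 59.1 CPM, by 1.20 on the log2 scale (SE 0.19, adjusted p = 0.000136, edgeR). The injured libraries lay below all sham libraries for both. Gaa, Glb1 and Lipa did not pass the test. Exons of Ppt1 overlap 129 bases of Cap1 on the other strand, and the counting is not stated to use strand, so reads of the 2 cannot be told apart there. Cap1 held up to 258% as many counts as Ppt1.

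Among membrane proteins, Cd63 (ENSMUSG00000025351, chromosome 10, 128900989 to 128912822, plus strand), a tetraspanin of late endosomes and secretory lysosomes, rose from 125, 169 and 181 CPM to 453, 813 and 894 CPM. Its log2 fold change was 2.19 (SE 0.28, adjusted p = 1.76e-05, edgeR). Cd68, the macrosialin of phagocytes, rose by 0.91 on the log2 scale to 1061 ± 321 CPM (SD, n = 3). Scarb2, the receptor that carries glucocerebrosidase to the lysosome, fell from 115, 130 and 161 CPM to 69.1, 74.5 and 57.6 CPM, by 1.01 on the log2 scale (SE 0.15, adjusted p = 7.22e-05, edgeR). Laptm5 fell to 755, 898 and 779 CPM, by 0.69 on the log2 scale (SE 0.19, adjusted p = 0.0166, edgeR), a call that was lost in 3 of the 6 fits without 1 library, with an adjusted p of up to 0.0896. The structural proteins Lamp1 and Lamp2 and the channel Mcoln1 did not pass the test. Of the cofactors, Psap fell by 0.86 on the log2 scale, from 569, 581 and 768 CPM to 337, 344 and 375 CPM, and Grn, Npc1 and Npc2 did not pass the test.

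Of the 4 subunits of the proton pump, 3 rose. Atp6v0d1, the common d subunit, rose from 19.0, 22.9 and 24.2 CPM to 27.3, 38.6 and 40.9 CPM, a log2 fold change of 0.69 (SE 0.18, adjusted p = 0.00995, edgeR). Its direction is relative to the scaling, since library size alone gave -0.083, and the call was lost without sham replicate 1 (adjusted p = 0.06, edgeR). Atp6v1a, the catalytic subunit, rose by 1.33 on the log2 scale to 88.1, 168 and 227 CPM, and Atp6v1h, a regulatory subunit, by 0.69. Atp6v0d2 had 8, 4 and 16 counts against 0, 1 and 9 in sham (adjusted p = 0.241, edgeR), and the groups overlapped. Both regulators fell. Tfeb stood at 10.8, 6.80 and 8.66 CPM against 17.1, 15.9 and 19.1 CPM in sham, a difference of -0.99 on the log2 scale (SE 0.32, adjusted p = 0.0397, edgeR). Tfe3 stood at 23.5, 21.6 and 20.3 CPM against 32.1, 35.6 and 37.7 CPM, a difference of -0.69 on the log2 scale (SE 0.19, adjusted p = 0.0179, edgeR). The injured libraries lay below all sham libraries for both, but of the 6 fits without 1 library the Tfeb call was lost in 5 (adjusted p up to 0.197) and the Tfe3 call in 4 (adjusted p up to 0.0953). The mRNA level does not measure where these proteins are in the cell, which is how they are known to be controlled.

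**Figure D2:**
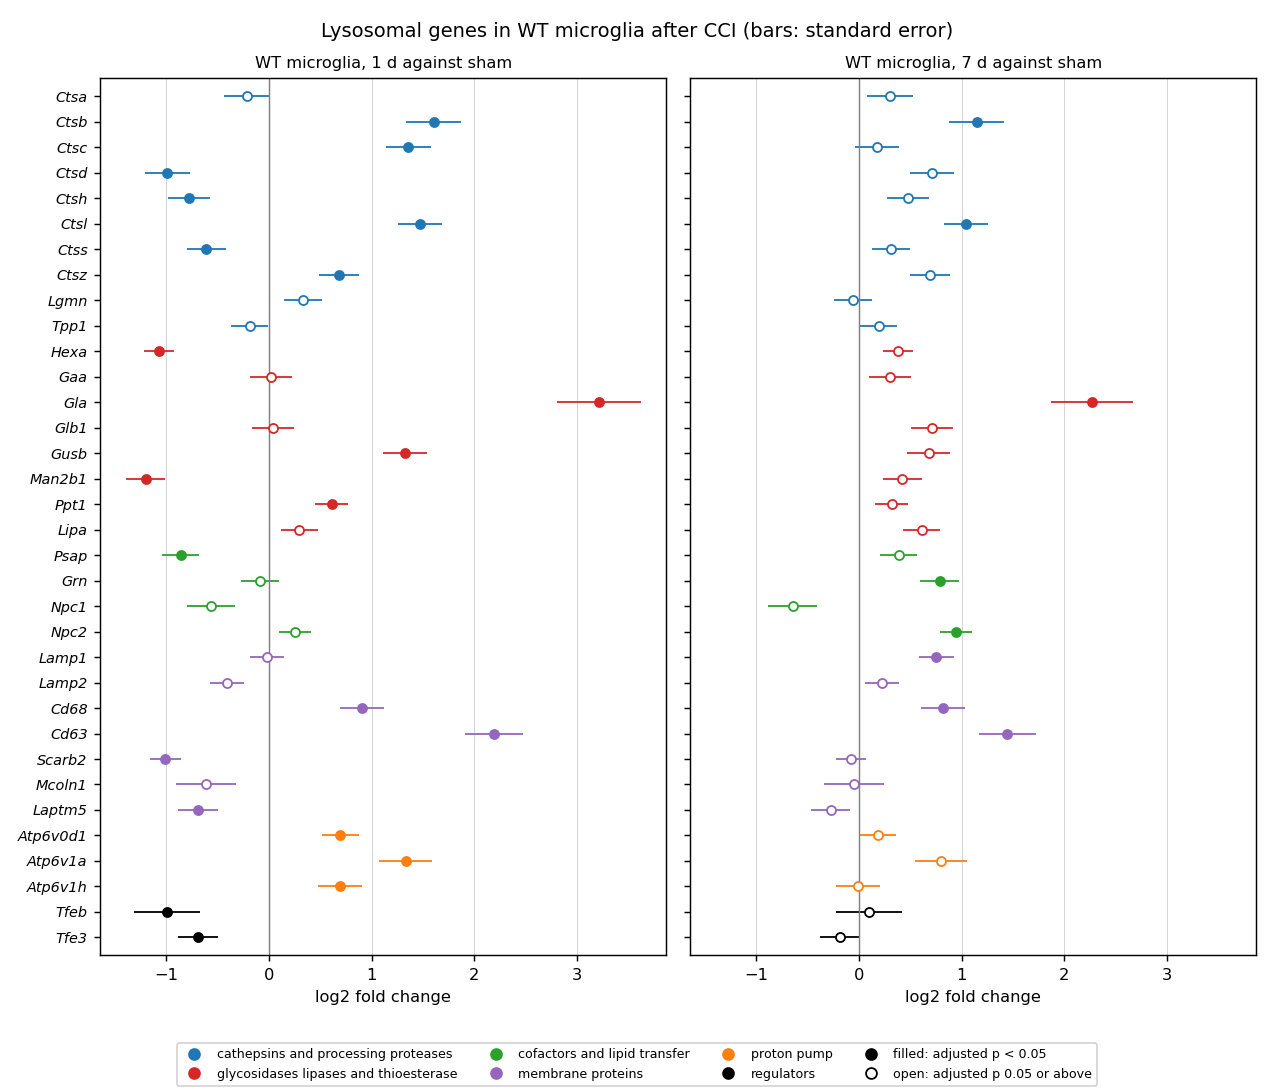
Log2 fold change of 34 lysosomal genes in WT microglia at 1 d (left) and 7 d (right) against sham microglia, with bars of 1 standard error, n = 3 libraries per group; Atp6v0d2, with its few counts, is left out. Filled points passed an adjusted p under 0.05: 12 higher and 10 lower at 1 d, and 8 higher and 0 lower at 7 d.

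In Fgg390-396A microglia at 1 d, compared with the same 3 sham libraries, 8 lysosomal genes were higher and 5 lower, with a median log2 fold change of -0.06 and 9.8% of all genes called (7.6% higher and 2.19% lower). Of the 13 calls, 6 exceeded a log2 fold change of 1 in size. Over all genes 1582 of 2333 calls did, and these 1582 were 6.64% of the genes tested. Of all genes above 10 CPM, 31.4% were called. The split was 6 higher and 7 lower with DESeq2's size factors, and 5 higher and 12 lower with library size alone. The higher genes were Gla (2.47), Cd63 (1.78), Ctsl and Gusb (both 1.23), Ctsb (1.13), Ctsc (1.10), Ctsz (0.66) and Ppt1 (0.54). Gla stood at 5.38, 9.31 and 9.32 CPM (SE 0.40, adjusted p = 0.000307, edgeR), and Cd63 at 375, 606 and 651 CPM (SE 0.28, adjusted p = 0.000239, edgeR). Gusb rose from 68.2, 57.4 and 64.5 CPM to 111, 178 and 157 CPM (SE 0.21, adjusted p = 0.000606, edgeR). Every injured library lay above every sham library for these 3 genes. The lower genes were Scarb2, Npc1, Hexa, Psap and Man2b1. Scarb2 stood at 79.0, 74.4 and 70.3 CPM, a difference of -0.86 on the log2 scale (SE 0.15, adjusted p = 0.00064, edgeR). Hexa stood at 105, 111 and 110 CPM, a difference of -0.77 (SE 0.15, adjusted p = 0.00136, edgeR). Psap stood at 363, 379 and 429 CPM, a difference of -0.71 (SE 0.18, adjusted p = 0.0137, edgeR), which was lost in 2 of the 6 fits without 1 library, with an adjusted p of up to 0.0836. Npc1, the membrane cholesterol exporter, differed by -0.82. Up to 90.1% as many counts as its own lay on Rmc1, which shares 511 exon bases with it. No pump subunit or regulator was called: Atp6v0d1 had a log2 fold change of 0.50 (SE 0.18, adjusted p = 0.0968, edgeR), Tfeb of -0.58 (SE 0.32, adjusted p = 0.32, edgeR) and Tfe3 of -0.47 (SE 0.19, adjusted p = 0.157, edgeR). Ctsd missed the threshold with -0.68 (SE 0.22, adjusted p = 0.0523, edgeR) and passed it with DESeq2's size factors (adjusted p = 0.0146) and without sham replicate 1 (adjusted p = 0.0286). Without sham replicate 3, 10 of the 35 were called, and without Fgg390-396A replicate 2 at 1 d, 7. The calls of Ctsb, Ctsz, Man2b1, Npc1, Ppt1 and Psap were lost in at least 1 of the 6 fits without 1 library. That a gene passed in one genotype and not in the other does not show a difference, which is tested below.

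At 7 d post-CCI, the lysosomal genes of WT microglia leaned upward. Of the 35, 8 were higher and 0 lower than in sham, where 2.69% of all genes (2.42% higher and 0.265% lower) and 9.04% of those above 10 CPM were called. Of the 8, 4 exceeded a log2 fold change of 1. Over all genes 481 of 640 calls did in either direction, and these 481 were 2.02% of the genes tested. The median log2 fold change was 0.39, against about 0 over all genes, and 28 of the 35 were positive. Npc2, the soluble cholesterol carrier, rose from 71.2, 80.4 and 95.6 CPM to 166, 148 and 162 CPM, a log2 fold change of 0.94 (SE 0.16, adjusted p = 0.0019, edgeR). Gla stood at 6.74, 9.10 and 5.02 CPM, a log2 fold change of 2.27 (SE 0.40, adjusted p = 0.00256, edgeR). Cd63 stood at 489, 390 and 412 CPM, a log2 fold change of 1.44 (SE 0.28, adjusted p = 0.00492, edgeR). The 3 injured libraries were above all sham libraries for each of them. The other calls were Ctsb (1.15), Ctsl (1.05), Cd68 (0.82), Grn (0.79) and Lamp1 (0.75), whose libraries lay between 1018 and 1043 CPM at 7 d against 456 to 758 CPM in sham. Ctsd, at 3025, 2674 and 2680 CPM, missed the threshold with a log2 fold change of 0.72 (SE 0.22, adjusted p = 0.0966, edgeR), although its libraries lay above all sham libraries, and it passed without sham replicate 3 with an adjusted p of 0.00517. Ctss (0.31, SE 0.19, adjusted p = 0.537, edgeR), Tfeb (0.10, SE 0.32, adjusted p = 1, edgeR) and Tfe3 (-0.19, SE 0.19, adjusted p = 0.789, edgeR) overlapped with sham. Atp6v0d2 had 35, 7 and 18 counts (adjusted p = 0.144, edgeR), and passed without sham replicate 3 (adjusted p = 0.0425, edgeR).

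The count at 7 d was sensitive to single libraries. It was 13 without sham replicate 3, but 3 without sham replicate 1 or 2, 4 without WT replicate 1 or 2 at 7 d, and 5 without WT replicate 3. The median stayed between 0.31 and 0.57 in these 6 fits. Npc2, Gla and Cd63 were called in all 6, Cd68 in 0, and Ctsb, Ctsl, Grn and Lamp1 in some. With library size alone, 2 genes were higher and 2 lower and the median was -0.16, where genes above 1 CPM had moved to -0.58. In Fgg390-396A microglia at 7 d, 0 of the 35 were called against the same sham libraries, where 0.886% of all genes were, and DESeq2 called 3. Of the 35, 10 had an unadjusted p under 0.05, 27 had a positive log2 fold change, and the median was 0.32, against 0.010 over genes above 1 CPM. Gla stood at 3.51, 2.69 and 3.87 CPM, Cd63 at 323, 273 and 379 CPM and Npc2 at 137, 115 and 125 CPM. For all 3 genes these libraries lay above the sham libraries and below the WT libraries at 7 d. Without sham replicate 3, 2 of the 35 were called.

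**Figure D3:**
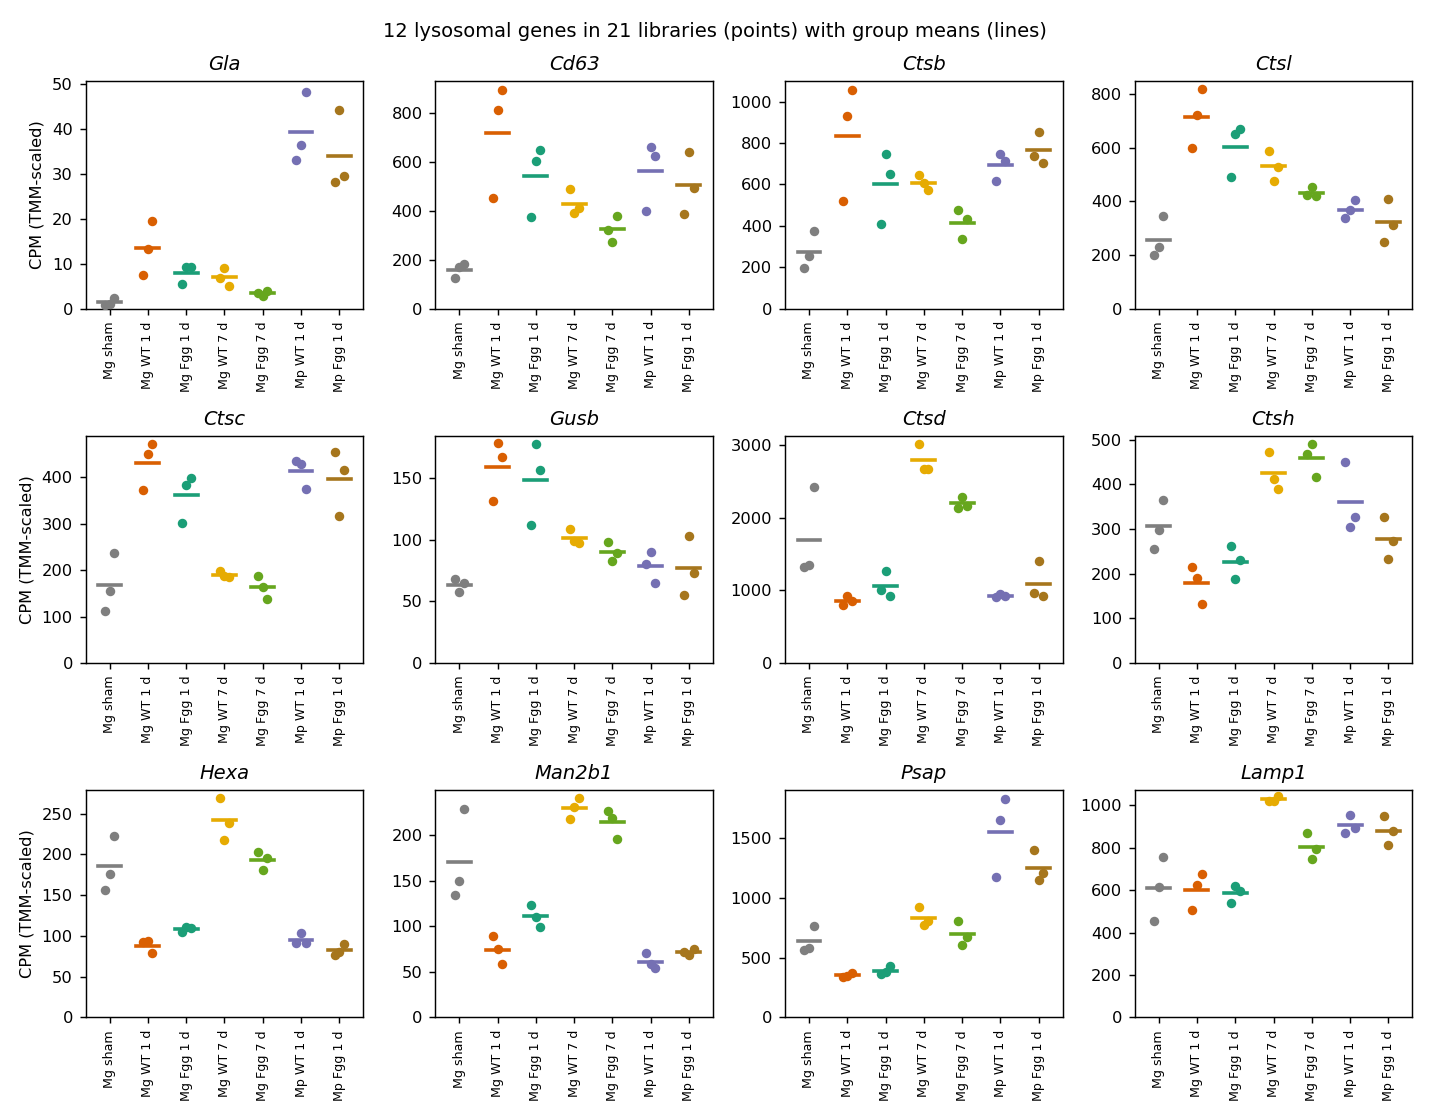
Level in CPM of 12 lysosomal genes in each of the 21 libraries, in the 7 groups (3 points each, the bar is the group mean). Ctsd lay at 801 to 1270 CPM in microglia at 1 d and at 2674 to 3025 CPM in WT microglia at 7 d, Gla rose from 0.861 to 2.41 CPM in sham to 28.1 to 48.2 CPM in infiltrating cells, and Psap was highest in infiltrating cells (1148 to 1830 CPM).

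Between 1 d and 7 d, Hexa, Man2b1 and Ctsd led a set of enzymes and cofactors that were higher at the later time. In WT microglia 13 of the 35 were higher at 7 d and 2 lower, where 10.3% of all genes were called (3.7% higher and 6.6% lower) and 32.8% of those above 10 CPM. Of the 15 calls, 7 exceeded a log2 fold change of 1 in size. Over all genes 1682 of 2453 calls did, and these 1682 were 7.06% of the genes tested. This comparison uses the 1 d libraries that also enter the comparison with sham, so the 2 are not independent. Hexa went from 92.1, 93.7 and 78.6 CPM to 269, 217 and 238 CPM, a log2 fold change of 1.45 (SE 0.15, adjusted p = 1.05e-05, edgeR). Man2b1 went from 59.1 to 89.7 CPM at 1 d to 217, 231 and 240 CPM, a log2 fold change of 1.62 (SE 0.19, adjusted p = 2.68e-05, edgeR). Ctsd went from 801 to 924 CPM at 1 d to 2674 to 3025 CPM, a log2 fold change of 1.70 (SE 0.22, adjusted p = 5.48e-05, edgeR). The groups did not overlap for any of them. Ctss rose by 0.92 (SE 0.19, adjusted p = 0.00266, edgeR) and Tfeb, at 16.7, 15.5 and 23.6 CPM, by 1.09 on the log2 scale (SE 0.32, adjusted p = 0.0345, edgeR), while Tfe3 had a log2 fold change of 0.50 (SE 0.19, adjusted p = 0.121, edgeR). The other genes that rose were Psap and Ctsh (both 1.25), Scarb2 (0.93), Grn (0.88), Lamp1 (0.77), Npc2 (0.69), Glb1 (0.67) and Lamp2 (0.63). Tmppe shares exons with Glb1 on the same strand and held up to 40.8% as many counts.

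Among the genes that fell with time, Ctsc led in both genotypes. In WT microglia it went from 373, 451 and 472 CPM to 197, 188 and 185 CPM, a difference of -1.18 on the log2 scale (SE 0.22, adjusted p = 0.00122, edgeR). Atp6v1h fell by 0.70 (SE 0.21, adjusted p = 0.039, edgeR), a call that was lost under DESeq2's size factors (adjusted p = 0.0742) and in 4 of the 6 fits without 1 library (adjusted p up to 0.187). Glb1 lost its call in all 6 of these fits, and Tfeb and Lamp2 in 4 each. In Fgg390-396A microglia 6 of the 35 were higher and 2 lower at 7 d, where 5.64% of all genes were called (1.08% higher and 4.56% lower) and 19.7% of those above 10 CPM. Of the 8 calls, 3 exceeded a log2 fold change of 1 in size. Over all genes 844 of 1343 calls did, and these 844 were 3.54% of the genes tested. Hexa had a log2 fold change of 0.83 (SE 0.15, adjusted p = 0.00165, edgeR), Man2b1 of 0.95 (SE 0.19, adjusted p = 0.00409, edgeR) and Ctsh of 1.02 (SE 0.21, adjusted p = 0.00511, edgeR). Ctsd went from 1002, 1270 and 918 CPM to 2142, 2295 and 2161 CPM, a log2 fold change of 1.05 (SE 0.22, adjusted p = 0.0054, edgeR). Psap (0.84) and Scarb2 (0.68) completed the genes that rose. Ctsc fell by 1.15 (SE 0.22, adjusted p = 0.00288, edgeR), from 303 to 399 CPM to 138 to 187 CPM. Gusb fell by 0.72 (SE 0.21, adjusted p = 0.0494, edgeR), close to the threshold, and passed it neither without a filter on counts (adjusted p = 0.0523) nor in 5 of the 6 fits without 1 library (adjusted p up to 0.284). Psap lost its call in 1 of these fits and Scarb2 in 2. Whether the change with time differed between genotypes was tested as an interaction, and 0 of the 35 passed, as did 0% of all genes, with 0 called by DESeq2. The 4 with an unadjusted p under 0.05 were Hexa (-0.62), Man2b1 (-0.68), Ctsd (-0.65) and Ctss (-0.58), each with a smaller rise in Fgg390-396A mice and an adjusted p of 1.

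**Figure D4:**
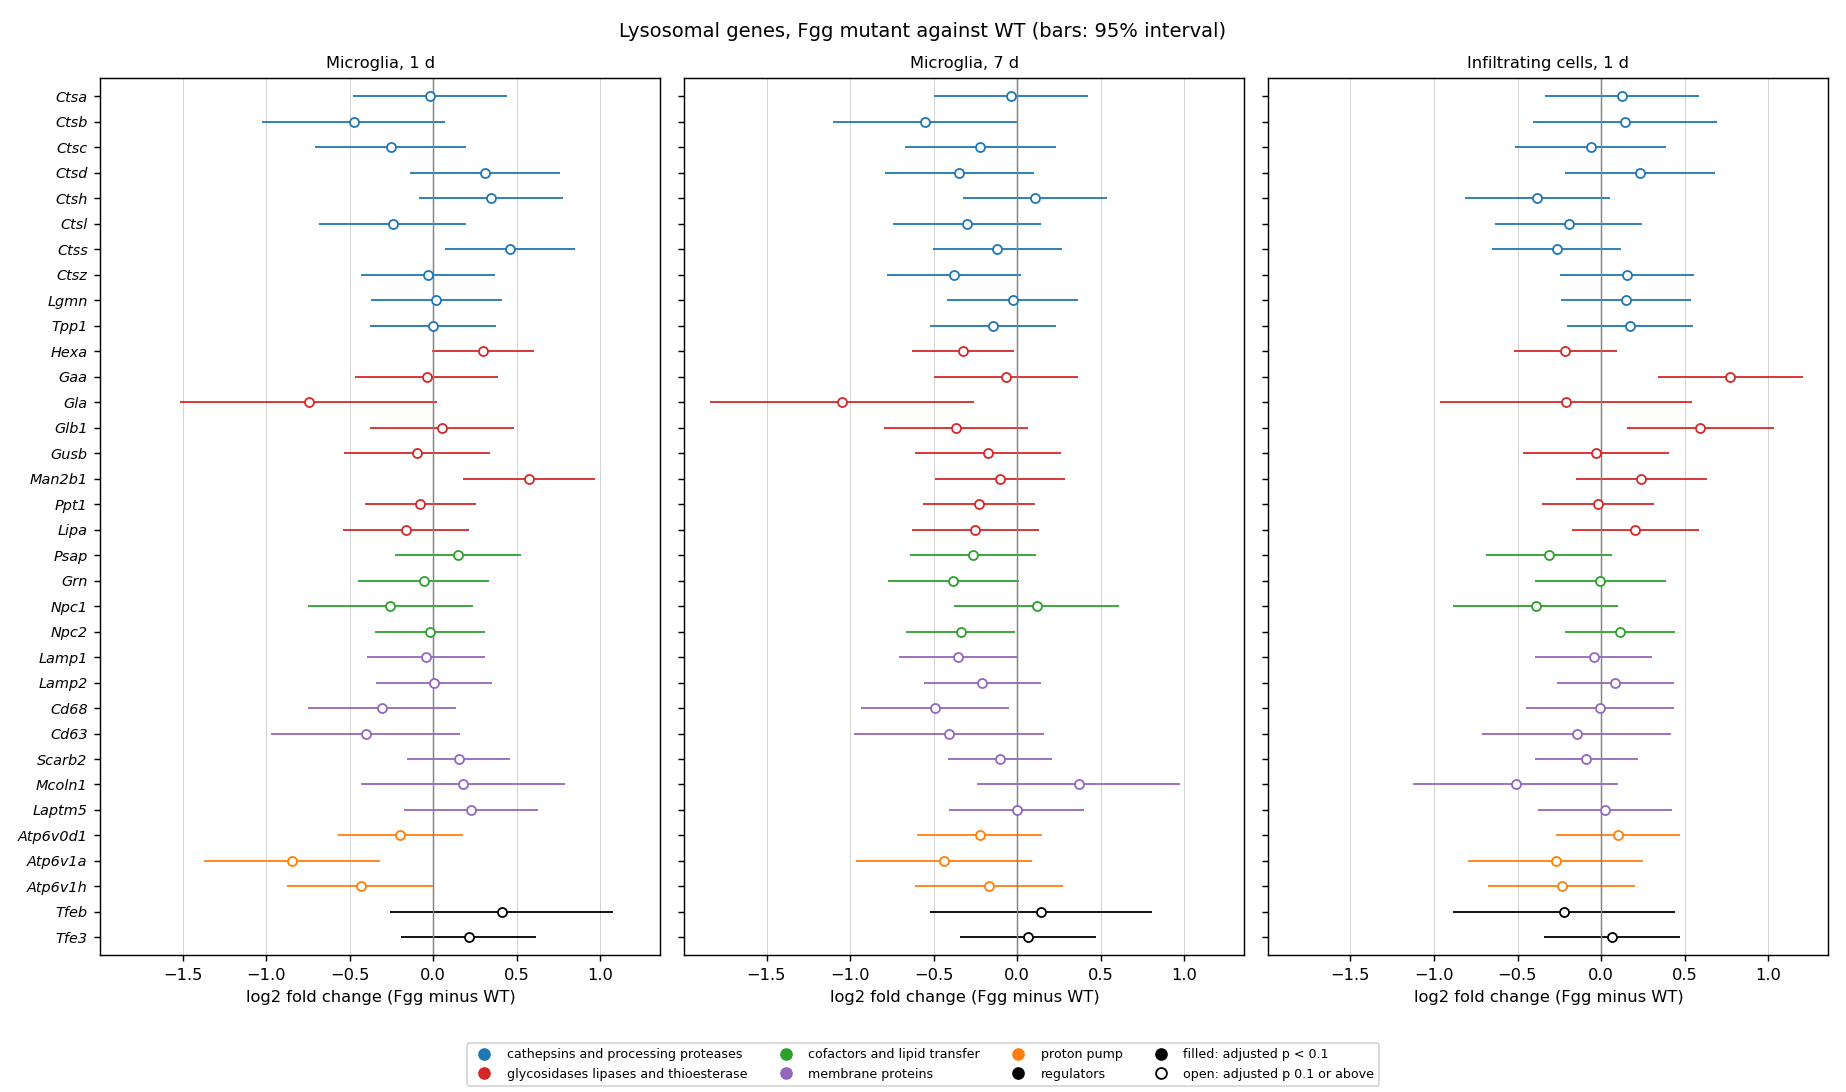
Log2 fold change of 34 lysosomal genes in Fgg390-396A against WT mice, in microglia at 1 d, microglia at 7 d and infiltrating cells at 1 d. Bars span the 95% interval, n = 3 libraries per group, and Atp6v0d2 is left out. No point is filled, since 0 genes passed an adjusted p under 0.1 in edgeR, and at 7 d most points lie left of 0.

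Between genotypes edgeR called 0 of the lysosomal genes in each of 3 comparisons, and DESeq2 called 1, 0 and 2. The authors' own genotype test was DESeq2's Wald test, at an adjusted p under 0.1 with an absolute log2 fold change above 1. The DESeq2 calls here had log2 fold changes of -0.87 (Atp6v1a), 0.81 (Gaa) and 0.63 (Glb1), none past that bar on size. The question of the study was whether loss of the CD11b-binding motif of fibrin changes innate immune cells after injury. In microglia at 1 d, 0 of the 35 were called in edgeR, where 0.0546% of all genes were, 4 had an unadjusted p under 0.05, and the median log2 fold change was -0.03. The 4 were Atp6v0d2, Atp6v1a, Ctss and Man2b1. Libraries of the 2 genotypes did not overlap for 5 of the 35. Atp6v1a stood at 74.8, 95.9 and 98.1 CPM in Fgg390-396A and 88.1, 168 and 227 CPM in WT microglia, with overlap, a difference of -0.85 on the log2 scale (95% interval -1.37 to -0.32, adjusted p = 0.75, edgeR). DESeq2 called this gene alone, with an adjusted p of 0.0932, and edgeR called 1 gene without WT replicate 1 at 1 d. Ctss stood at 1897, 1868 and 2042 CPM against 1530, 1456 and 1230 CPM in WT mice, without overlap, a log2 fold change of 0.46 (95% interval 0.07 to 0.85, adjusted p = 0.89, edgeR). Man2b1, at 123, 111 and 99.2 CPM against 59.1 to 89.7 CPM, had a log2 fold change of 0.57 (95% interval 0.18 to 0.97). Atp6v0d2 had 1, 0 and 2 counts in Fgg390-396A and 8, 4 and 16 counts in WT microglia, near the limit of what these depths can count (adjusted p = 0.842, edgeR).

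In microglia at 7 d, the lean was to lower levels in Fgg390-396A mice. Of the 35, 30 had a negative log2 fold change, with a median of -0.22 against 0.010 over genes above 1 CPM. The share of all genes with a negative value was not counted. Of the 35, 0 were called in edgeR or DESeq2, where edgeR called 0.0378% of all genes. With library size alone the median was 0.0060, while that of genes above 1 CPM moved to 0.24. The 7 with an unadjusted p under 0.05 were Atp6v0d2, Cd68, Ctsb, Gla, Hexa, Lamp1 and Npc2, all lower in Fgg390-396A mice and all with an adjusted p of 1. The percentage of all genes given above is for calls and not for this threshold. Gla, at 2.69 to 3.87 CPM against 5.02 to 9.10 CPM in WT mice, differed by -1.05 on the log2 scale (95% interval -1.84 to -0.26). Lamp1 stood at 870, 748 and 796 CPM against 1018, 1023 and 1043 CPM, a difference of -0.35 (95% interval -0.71 to -0.0011). Cd68 stood at 834, 540 and 762 CPM against 1006, 1112 and 885 CPM, a difference of -0.49 (95% interval -0.94 to -0.05). None of these 3 overlapped between genotypes, as was so for 17 of the 35. The share of all genes without overlap was not counted. The microglial marker sum was also higher in Fgg390-396A than in WT microglia at both times, at 3029 against 1815 CPM at 1 d and 4674 against 3828 CPM at 7 d. The part of this in the lysosomal values was not tested.

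In infiltrating myeloid cells, 0 of the 35 were called between genotypes in edgeR, where 0.495% of all genes were, and the median log2 fold change was -0.02. Gaa, the alpha-glucosidase that degrades glycogen, stood at 25.8, 19.8 and 16.2 CPM in Fgg390-396A and 13.4, 10.5 and 12.1 CPM in WT mice, a log2 fold change of 0.77 (95% interval 0.34 to 1.21, adjusted p = 0.16, edgeR). Glb1, the beta-galactosidase, stood at 9.62, 14.8 and 8.51 CPM against 7.01, 7.74 and 7.08 CPM, a log2 fold change of 0.59 (95% interval 0.16 to 1.03, adjusted p = 0.28, edgeR). Neither overlapped between genotypes, as was so for 4 of the 35, and DESeq2 called both, with adjusted p of 0.00908 and 0.069. The neutrophil marker sum was 2766 to 5836 CPM in Fgg390-396A and 3536 to 13211 CPM in WT libraries. The intervals bound what a missed call could hide: the 95% interval had a median half-width of 0.43 on the log2 scale in each genotype comparison, and it lay within a log2 fold change of 1 in either direction for 30 of the 35 genes in microglia at 1 d, 32 at 7 d and 31 in infiltrating cells.

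Infiltrating cells and injured microglia differed at 1 d in single genes in both directions, while the total was 12671 ± 351 CPM in WT and 12231 ± 446 CPM in Fgg390-396A infiltrating cells (SD, n = 3). In WT mice 9 of the 35 were higher in infiltrating cells and 7 lower, where 15.7% of all genes were called (7.56% higher and 8.11% lower) and 36.3% of those above 10 CPM. Of the 16 calls, 9 exceeded a log2 fold change of 1 in size. Over all genes 2838 of 3732 calls did, and these 2838 were 11.9% of the genes tested. In Fgg390-396A mice 9 were higher and 8 lower, where 21.4% of all genes were called (9.33% higher and 12.1% lower) and 42.8% of those above 10 CPM. Of the 17 calls, 6 exceeded a log2 fold change of 1 in size. Over all genes 3968 of 5092 calls did, and these 3968 were 16.7% of the genes tested. The split between higher and lower in Fgg390-396A mice was 11 higher and 6 lower with DESeq2's size factors, and 7 higher and 13 lower with library size alone. In a fit of the 2 Fgg390-396A groups alone, 9 genes were called, 8 higher and 1 lower, and of the lower calls only that of Lgmn was kept. Of the 4 cofactors, 2 were higher in both genotypes and the others were not called. Of the 10 proteases, 1 was higher and 3 lower in WT mice and 0 and 3 in Fgg390-396A mice, and of the 8 glycosidases, lipases and thioesterases 2 were higher and 4 lower in each genotype. Leaving out 1 library ended at least once the calls of Atp6v0d1, Atp6v0d2, Ctsz, Gaa, Lamp1 and Lipa in WT mice, and of Atp6v1h, Ctsl, Ctss, Glb1, Lamp1 and Man2b1 in Fgg390-396A mice.

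Psap (ENSMUSG00000004207, chromosome 10, 60277627 to 60302597, plus strand), the precursor of the saposins, was the clearest difference. In WT mice it stood at 1176, 1654 and 1830 CPM in infiltrating cells against 337, 344 and 375 CPM in microglia, a log2 fold change of 2.14 (SE 0.19, adjusted p = 3.22e-07, edgeR). In Fgg390-396A mice it stood at 1406, 1148 and 1206 CPM against 363, 379 and 429 CPM, a log2 fold change of 1.68 (SE 0.18, adjusted p = 2.52e-06, edgeR). All infiltrating libraries also exceeded every microglia library of any group. Npc2 was higher by 1.02 (SE 0.16, adjusted p = 0.000133, edgeR) in WT and by 1.16 (SE 0.16, adjusted p = 3.02e-05, edgeR) in Fgg390-396A mice, at 186 to 221 CPM in the 6 infiltrating libraries. Gla was higher by 1.55 and 2.09, at 28.1 to 48.2 CPM, and Lipa, the acid lipase that frees cholesterol from its esters, by 0.54 and 0.91. Grn and Npc1 were not called in either genotype.

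All 4 pump subunits had higher means in the infiltrating cells, and 3 passed the test in WT and 4 in Fgg390-396A mice. Atp6v1a stood at 346, 419 and 451 CPM in WT infiltrating cells, a log2 fold change of 1.33 over microglia (SE 0.26, adjusted p = 0.000999, edgeR), and at 379, 274 and 355 CPM in Fgg390-396A mice, a log2 fold change of 1.91 (SE 0.26, adjusted p = 2.65e-05, edgeR). Atp6v0d1 (ENSMUSG00000013160, chromosome 8, 105524465 to 105566047, minus strand) stood at 51.5, 60.9 and 63.4 CPM and at 52.6, 72.2 and 63.7 CPM, with log2 fold changes of 0.72 (SE 0.18, adjusted p = 0.00838, edgeR) and 1.02 (SE 0.18, adjusted p = 0.000396, edgeR). The first of these calls was lost without WT microglia replicate 1 (adjusted p = 0.0529, edgeR). Its paralog Atp6v0d2 (ENSMUSG00000028238, chromosome 4, 19876841 to 19922605, minus strand) had its highest group means in these cells, with 120, 53 and 188 counts in WT and 37, 142 and 133 counts in Fgg390-396A infiltrating cells against at most 35 in any microglia library. These are raw counts. Scaled to depth, the infiltrating library with 37 counts and the WT microglia library at 7 d with 35 lay at about the same level. In WT mice its log2 fold change over microglia was 3.71 (SE 1.02, adjusted p = 0.0161, edgeR), which was lost in 3 of the 6 fits without 1 library (adjusted p up to 0.0917). In Fgg390-396A mice the 3 microglia libraries held 3 counts in all, so the scaled ratio of 139 has a counting interval of 47.2 to 679. That interval takes summed, rounded expected counts as read counts and leaves out the spread between libraries. At 2.79 to 8.48 CPM in WT infiltrating cells Atp6v0d2 stayed well under Atp6v0d1. Atp6v1h was called in Fgg390-396A mice only (0.65), and the difference between genotypes was not called for it.

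Among the genes lower in infiltrating cells, Lgmn went from 910, 1243 and 990 CPM in WT microglia to 531, 565 and 429 CPM, a difference of -1.04 on the log2 scale (SE 0.19, adjusted p = 0.000597, edgeR), and differed by -0.91 (SE 0.19, adjusted p = 0.00154, edgeR) in Fgg390-396A mice. Ppt1 differed by -0.82 (SE 0.16, adjusted p = 0.00126, edgeR) in WT mice, at 67.7 to 94.9 CPM against 123 to 155 CPM, and by -0.76 (SE 0.16, adjusted p = 0.00182, edgeR) in Fgg390-396A mice. Glb1 differed by -1.19 (SE 0.21, adjusted p = 0.000512, edgeR) and -0.65. Gusb stood at 54.7, 103 and 73.1 CPM in Fgg390-396A infiltrating cells against 111, 178 and 157 CPM, a difference of -0.95 (SE 0.21, adjusted p = 0.00282, edgeR), with -1.01 in WT mice. Ctsl was lower in both as well, with differences of -0.95 and -0.90. Ctss overlapped between cell types in WT mice, at 1220 to 1671 against 1230 to 1530 CPM, whereas in Fgg390-396A mice it differed by -0.68 (SE 0.19, adjusted p = 0.0122, edgeR). Ctsh was called in WT mice only (1.01). Ctsd, Tfeb and Tfe3 were not called in either genotype, although Tfe3 was lower in Fgg390-396A mice without infiltrating replicate 2 (-0.55, adjusted p = 0.0213, edgeR). The difference between genotypes in the effect of cell type was called for 0 of the 35 genes, where 0.0462% of all genes were, and for 0 in DESeq2. Ctss (-0.73), Ctsh (-0.73), Hexa (-0.51) and Gaa (0.81) had an unadjusted p under 0.05, with adjusted p of 0.528 to 0.539 in edgeR.

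**Figure D5:**
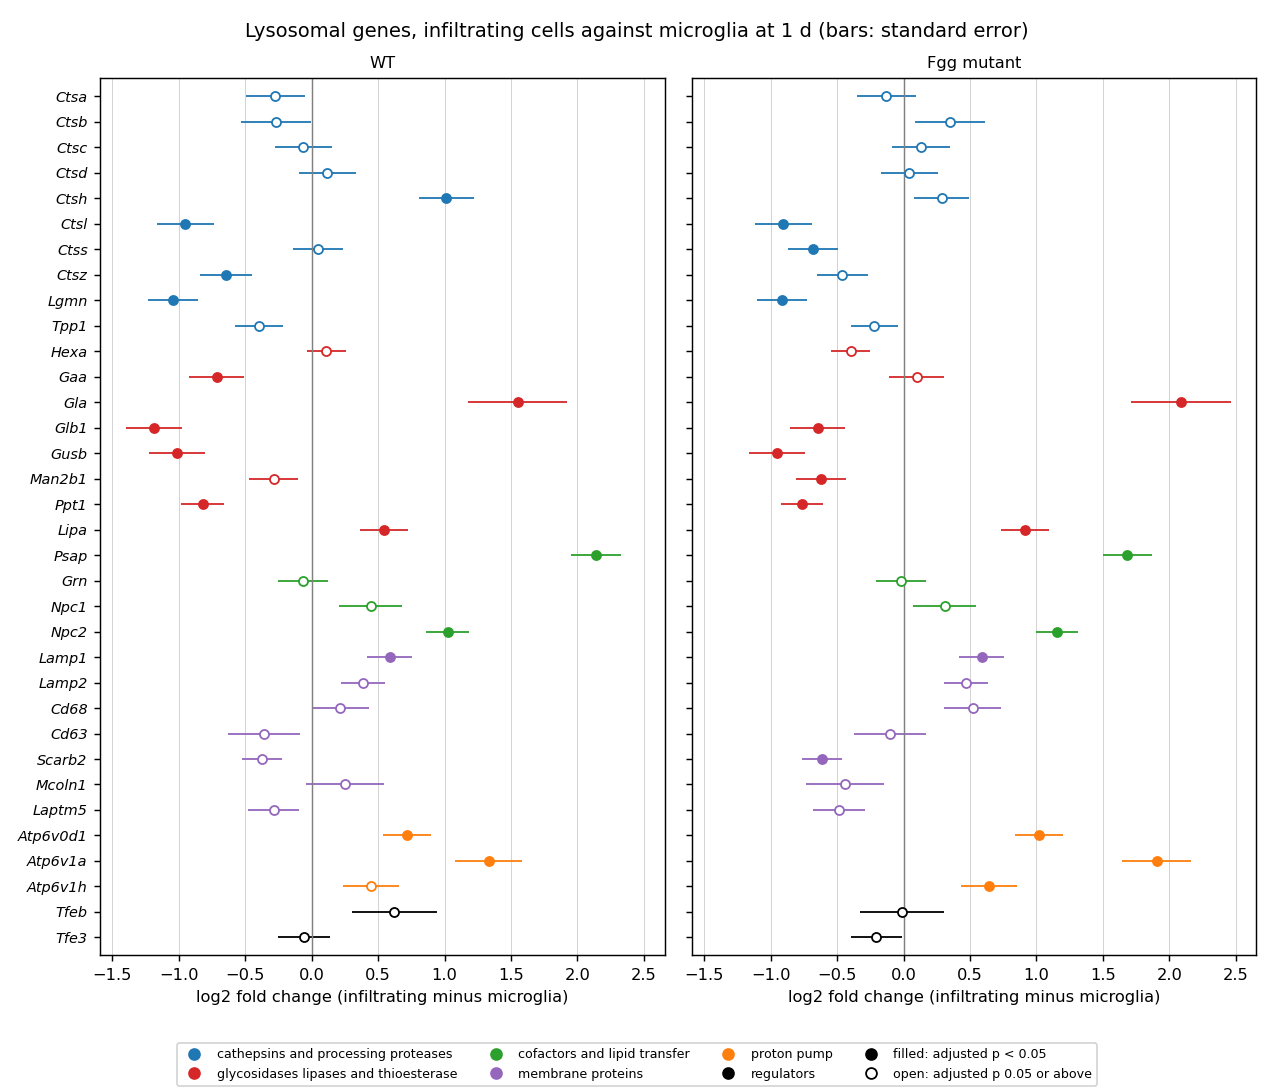
Log2 fold change of 34 lysosomal genes in infiltrating myeloid cells against microglia at 1 d, in WT (left) and Fgg390-396A mice (right), with bars of 1 standard error, n = 3 libraries per group; Atp6v0d2 is left out. Filled points passed an adjusted p under 0.05. Farthest to the right were Psap (2.14) and Gla (1.55) in WT mice. In Fgg390-396A mice they were Gla (2.09) and Atp6v1a, followed by Psap (1.68).

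A second list of 94 other lysosomal genes, from sulfatases and transporters to further pump subunits and cathepsin inhibitors, also moved in both directions. At 1 d in WT microglia 20 of the 94 were higher and 18 lower than in sham, or 40.4%, beside 16.7% of all genes and 46.8% of those above 10 CPM. The smallest adjusted p belonged to Igf2r, the mannose-6-phosphate receptor that sorts enzymes to the lysosome, which rose from 1, 1 and 3 counts to 143, 405 and 577 counts (adjusted p = 1.51e-07, edgeR). It stood at 3.30, 9.64 and 7.11 CPM in Fgg390-396A microglia at 1 d and at 0.323 to 0.812 CPM at 7 d in both genotypes. Cstb, a cytosolic cathepsin inhibitor, rose from 37.4, 46.0 and 45.8 CPM to 212, 379 and 435 CPM, a log2 fold change of 2.99. Cd164, the sialomucin endolyn, fell from 414 to 446 CPM to 96.4 to 141 CPM, a difference of -1.87. Of the 14 other pump subunits, 6 were higher and 1 lower. At 7 d in WT microglia 5 of the 94 were higher and 1 lower, or 6.38% beside 2.69% of all genes and 9.04% of those above 10 CPM, with Cst7, the cystatin F known from activated microglia, at 145, 97.6 and 127 CPM against 4.82 to 8.55 CPM in sham (log2 fold change 4.33, SE 0.43). In Fgg390-396A microglia 10 were higher and 10 lower at 1 d, or 21.3% beside 9.8% of all genes and 31.4% of those above 10 CPM, and 1 was higher and 1 lower at 7 d, or 2.13% beside 0.886% of all genes. Between genotypes 0 of the 94 were called in edgeR in microglia at either time, and 1 in infiltrating cells, where 0.495% of all genes were: Ctsf, at 1.45, 7.77 and 2.97 CPM in Fgg390-396A against 0.451 to 1.16 CPM in WT mice (log2 fold change 2.46, SE 0.45, adjusted p = 0.0219, edgeR). Between cell types 19 were higher and 19 lower in WT mice, or 40.4% beside 15.7% of all genes and 36.3% of those above 10 CPM. In Fgg390-396A mice 24 were higher and 21 lower, or 47.9% beside 21.4% and 42.8%. Gm2a, the GM2 activator, a lipid transfer protein, was higher in WT infiltrating cells, at 107 to 158 CPM against 26.1 to 28.8 CPM. Acp5, the tartrate-resistant phosphatase, stood at 32.4 to 73.0 CPM in WT infiltrating cells against 0.546 to 1.12 CPM in WT microglia.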

How the data were processed

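RNA was measured in 21 libraries of microglia and infiltrating myeloid cells. The authors ran nf-core/rnaseq with salmon against GRCm38. Expected counts for each gene were deposited, scaled to each library's mapped reads with gene length divided out and not normalized between libraries. Per the file headers, every column matched 1 library. Values were rounded to whole counts. Symbols, coordinates and overlaps came from GENCODE M21, which matched 45143 of 45706 identifiers; the authors' annotation release is not given in the sources used here. Genes with at least 5 counts over all libraries (23815) were fitted in R 4.3.3 with edgeR 4.0.16 (TMM, glmQLFit, glmQLFTest) as 7 group means, with Benjamini-Hochberg adjustment over all genes. The common biological coefficient of variation was 0.643. The members, lists and thresholds were chosen with earlier results of these data known.

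Full statistics were given, per comparison, for the 3 higher and the 3 lower members of smallest adjusted p, the 3 most abundant in sham microglia, Tfeb, Tfe3, Atp6v0d1 and Atp6v0d2; other members, and genes named for an unadjusted p or a lost call, are named because of their values. Of the second list, at most the 3 with the smallest adjusted p per direction were named, and 1 gene that the rule names is not reported here. Replicate pairs within groups differed by more than counting noise (chi-square divided by its degrees of freedom, 15.7 or more). Same-numbered libraries deviated together only between genotypes in microglia at 1 d, with r of 0.137 to 0.449 across genes, where the replicate block changed no count. Tested on simulated data for WT microglia at 1 d against sham, edgeR recovered 19.5% of 200 genes changed by a log2 fold change of 1 and 95.5% of those changed by 2, calling 0 and 1 others of 23202 and 23219 genes; DESeq2 1.42.0 recovered 57.5% and 97% and called 45 and 52 others. Only 200 genes were changed in the simulation, while 3970 were called in that comparison of the data. The cutoff of the adjustment depends on this number, so the recovered shares do not measure what was found in the data. Alternatives were DESeq2's Wald test, its size factors, library size alone, removal of ribosomal RNA genes, filterByExpr, no filter, the replicate block, the compared groups alone, a fold bar, and leaving out each library.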

Additional observations from a re-analysis of the deposited data

How the results depend on the processing

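Removing ribosomal RNA genes or the filter on counts changed no count of called lysosomal genes by over 1.5 times. With DESeq2's Wald test the counts were 16 for WT microglia at 7 d against sham, 3 for Fgg390-396A microglia at 7 d against sham, 16 for Fgg390-396A microglia at 7 d against 1 d, 1 between genotypes in microglia at 1 d and 2 between genotypes in infiltrating cells; this tool also called more unchanged genes on simulated data. With library size alone the median log2 fold changes were -0.76 and -0.48 for WT and Fgg390-396A microglia at 1 d against sham, -0.16 (with 4 genes called) and -0.018 at 7 d, 0.61 for WT microglia at 7 d against 1 d, 0.31 and 0.0060 between genotypes at 1 d and 7 d, -0.41 for infiltrating cells against microglia in Fgg390-396A mice and -0.30 for genotype by cell type. With filterByExpr 1 gene was called between genotypes in infiltrating cells, and the median for infiltrating cells against microglia in Fgg390-396A mice was 0.13. In a fit of the compared groups alone that last comparison called 9 genes, 8 higher and 1 lower. With a fold bar of 1 on the log2 scale the counts were 10, 6 and 4 for WT microglia at 1 d, Fgg390-396A microglia at 1 d and WT microglia at 7 d against sham, 7 and 3 for the time comparisons, and 9 and 6 for infiltrating cells against microglia. The replicate block moved the count for Fgg390-396A microglia at 7 d against sham from 0 to 1 and changed no other count by over 1.5 times; the libraries of that comparison share only a number. Among single genes the block ended the call of Gusb with time in Fgg390-396A microglia (adjusted p = 0.0531, edgeR). The causes of these shifts were not tested.

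Leaving out 1 library gave 16 to 21 calls for WT microglia at 1 d against sham, 7 to 13 for Fgg390-396A microglia at 1 d, 3 to 13 for WT microglia at 7 d and 0 to 2 for Fgg390-396A microglia at 7 d. It gave 11 to 18 and 5 to 10 calls for time in WT and Fgg390-396A microglia (5 without Fgg390-396A replicate 1 at 7 d), 0 to 1, 0 and 0 to 2 between genotypes in microglia at 1 d, at 7 d and in infiltrating cells (2 without Fgg390-396A replicate 3), 12 to 15 and 14 to 17 for cell type, and 0 for both interactions. An arm cut to 2 libraries was tested with the spread shared by all groups.

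Of the calls made for the 35 genes, those of Atp6v0d1, Atp6v1h, Ctsz and Ppt1 in WT microglia at 1 d changed sign, with library size alone (-0.083, -0.089, -0.064 and -0.15). Among the genes given in full, Tfe3, Tfeb, Ctss, Atp6v0d1 and Atp6v0d2 changed sign in some setting in comparisons where they had not been called, apart from that call of Atp6v0d1. With library size alone, against sham, Atp6v0d1 was at -0.36 in WT microglia at 7 d, while Ctss was at -0.24 and -0.13 and Tfeb at -0.46 and -0.080 in WT and Fgg390-396A microglia at 7 d. For infiltrating cells against microglia, Tfe3 in WT mice was at 0.0073 with DESeq2 or its size factors, 0.0067 with filterByExpr and 0.0022 with the 2 groups alone, and Tfeb in Fgg390-396A mice was at 0.11, 0.12 and 0.11. With 1 library left out, Tfe3 in WT mice was at 0.025 and 0.00081, against -0.081 where its adjusted p was lowest; Tfe3 in Fgg390-396A mice was at 0.055, against -0.55, and Tfeb in Fgg390-396A mice at 0.28, 0.24 and 0.059, against -0.33. Against sham, leaving out replicate 3 of sham put Atp6v0d2 at 0.45 and Ctss at 0.020 in Fgg390-396A microglia at 1 d, against -2.92 and -0.25 at the lowest adjusted p, and Atp6v0d1 at 0.035 in Fgg390-396A microglia at 7 d, which was 0.069 without replicate 2 at 7 d and -0.14 without replicate 1. Tfeb in WT microglia at 7 d was at -0.11 without replicate 3 and 0.17 without sham replicate 3. The common biological coefficient of variation of 0.643 and 3 libraries per group limit what the tests can call.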
